A study of Mus musculus with 2 samples.

Results

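The genes described here are 10 mouse genes of the Hippo signalling pathway: Ccn1 (also written Cyr61), Ccn2 (also written Ctgf), Ankrd1, Amotl2, Lats2, Yap1, Wwtr1, Tead1, Tead4 and Axl. They were chosen by name as targets and regulators of the transcriptional coactivator Yap and its partners, the Tead proteins, out of 21938 protein-coding genes of the GENCODE annotation. At these genes, a list of ChIP-seq regions was examined for Etv4 and another for Etv5, which are closely related transcription factors of the ETS family. A region was counted for a gene when at least 1 bp lay inside the gene or within 50 kb of its ends. By this rule 46 of 13636 Etv4 regions and 25 of 8297 Etv5 regions belonged to the 10 genes, and no region was counted for more than 1 of them.

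Both libraries came from EpRas, a mouse line of EpH4 mammary gland epithelial cells transformed by oncogenic H-Ras. Cells of both libraries were grown in medium with 4% serum and fixed after 1.5 h with 1 ng/ml TGF-β3. The Etv4 library was made with a rabbit polyclonal antibody and the Etv5 library with a mouse monoclonal antibody, so the antibody and the factor cannot be told apart. There was 1 library per antibody, with no replicate, and no untreated cells, EpH4 cells, input DNA or control antibody were analysed here. For this reason no test was made between the antibodies, and the differences below have no replicate error beside them. The lists give no read counts or heights, so the depth is unknown, and an absent region means only that none was listed. Each interval of a share is the exact 95% interval by the Clopper-Pearson method. It accounts for counting error alone and takes the regions of 1 gene to be independent, which neighbours are not. The lists hold no RNA levels, so the labelled cell type was not checked against its markers, and nothing below speaks to the expression of the genes.

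In the Hippo pathway, the kinases Lats1 and Lats2 phosphorylate Yap (encoded by Yap1) and its paralogue Taz (encoded by Wwtr1), which keeps them out of the nucleus. Unphosphorylated Yap and Taz enter the nucleus and act on DNA through Tead proteins, which recognise the sequence GGAATG. Many of the enhancers occupied by Yap and Tead in epithelial cancer cells also carry sites for AP-1, a dimer of Fos and Jun proteins.

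The sequences under some of these regions are shown first. All are from GRCm38, the assembly named mm10, and run 5′ to 3′ on the strand of the gene. Capitals mark matches to 3 kinds of pattern. The TEAD pattern was GGAATG, which on the opposite strand reads CATTCC. The AP-1 pattern was TGAGTCA, which on the opposite strand reads TGACTCA. The ETS patterns were CAGGAAGT and CCGGAAGT. The first stretch lies 43.1 kb upstream of Amotl2, at chr9:102673440-102673739, where an Etv4 and an Etv5 region overlapped. It is shown because it held the most matches among the overlapping pairs of Amotl2. Its 2 AP-1 and 2 TEAD matches alternate within 129 bases.

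Amotl2 upstream pair: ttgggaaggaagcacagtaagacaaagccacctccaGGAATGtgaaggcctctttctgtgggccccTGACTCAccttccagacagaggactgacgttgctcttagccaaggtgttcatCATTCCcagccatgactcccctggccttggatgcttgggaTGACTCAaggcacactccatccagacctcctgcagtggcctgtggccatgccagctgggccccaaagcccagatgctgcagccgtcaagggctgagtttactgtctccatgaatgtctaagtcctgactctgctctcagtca

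An overlapping pair in an intron of Axl, 4.76 kb inside the gene at chr7:25783795-25784094, held 2 AP-1 matches and 1 TEAD match. A second intronic pair, 6.82 kb inside the gene by the Etv4 region, held an ETS, an AP-1 and a TEAD match within 52 bases (chr7:25781851-25781932). It was chosen after its matches had been seen, because it was the pair of overlapping regions at these genes in which all 3 patterns lay at most 50 bp apart.

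Axl intronic pair, nearer the start: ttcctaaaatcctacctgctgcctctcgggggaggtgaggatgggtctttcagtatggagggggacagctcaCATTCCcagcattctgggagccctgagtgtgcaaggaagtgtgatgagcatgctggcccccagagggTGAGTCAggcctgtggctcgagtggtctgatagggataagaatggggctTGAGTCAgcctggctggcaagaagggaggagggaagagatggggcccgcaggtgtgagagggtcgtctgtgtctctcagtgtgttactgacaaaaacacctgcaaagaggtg

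Axl intronic pair, farther from the start: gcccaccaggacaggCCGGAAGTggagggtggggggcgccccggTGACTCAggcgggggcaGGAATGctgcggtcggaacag

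The Ankrd1 pair upstream of the gene (chr19:36129256-36129555) held 1 TEAD match. The pair at the Ankrd1 start held 2, at chr19:36119962-36119967 and chr19:36120049-36120054. Counted from the GENCODE start, both were inside an annotated 5′ UTR, so that each is shown with 12 bases on either side. The RefSeq start lies 255 bp farther inside the gene, and by it both matches belong to the promoter searched below. The names given to the 2 sites refer to the GENCODE start.

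Ankrd1 upstream pair: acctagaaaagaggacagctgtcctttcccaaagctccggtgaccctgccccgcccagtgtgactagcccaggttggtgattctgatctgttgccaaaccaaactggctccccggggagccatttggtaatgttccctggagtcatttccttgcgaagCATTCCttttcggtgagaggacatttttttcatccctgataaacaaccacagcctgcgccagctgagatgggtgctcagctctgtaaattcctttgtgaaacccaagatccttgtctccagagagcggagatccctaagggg

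Ankrd1 start, site farther inside: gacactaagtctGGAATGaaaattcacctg

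Ankrd1 start, site nearer the start: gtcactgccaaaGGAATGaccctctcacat

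The last sequences are from Etv4 regions that no Etv5 region matched at that position, also chosen after their matches had been seen. The Ccn2 stretch (chr10:24589414-24589536) is centred at -5967 bp from the gene start and holds 1 AP-1 and 2 TEAD matches. The Ccn1 and Wwtr1 stretches are the 250 bases before the RefSeq start (chr3:145649986-145650235 and chr3:57575911-57576160), which Etv4 regions spanned. The Ccn1 and Wwtr1 stretches held 1 TEAD match each and no AP-1 or ETS match.

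Ccn2 upstream region: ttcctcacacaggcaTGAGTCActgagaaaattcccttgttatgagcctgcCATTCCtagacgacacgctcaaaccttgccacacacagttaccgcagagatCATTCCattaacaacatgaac

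Ccn1 promoter: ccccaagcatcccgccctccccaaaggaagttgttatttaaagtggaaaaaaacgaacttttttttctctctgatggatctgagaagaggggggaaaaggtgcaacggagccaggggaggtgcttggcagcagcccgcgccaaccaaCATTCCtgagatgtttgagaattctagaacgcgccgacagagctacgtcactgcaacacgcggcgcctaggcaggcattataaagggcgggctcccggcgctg

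Wwtr1 promoter: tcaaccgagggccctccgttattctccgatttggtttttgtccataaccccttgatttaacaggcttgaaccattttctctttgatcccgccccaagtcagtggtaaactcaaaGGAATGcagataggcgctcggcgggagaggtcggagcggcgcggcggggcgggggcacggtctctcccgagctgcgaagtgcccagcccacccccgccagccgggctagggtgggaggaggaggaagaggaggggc

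Regions were found at nearly all of the genes. Of the 10 genes, 9 had at least 1 Etv4 region, beside 53.4% of all protein-coding genes by the same rule, and 7 had at least 1 Etv5 region, beside 42.7%. Wwtr1, which encodes Taz, had the most, with 10 Etv4 and 7 Etv5 regions. Amotl2 followed with 9 and 7, Ccn1 with 7 and 3, and Axl with 6 and 2. Tead1 had 4 Etv4 regions and none of Etv5, Tead4 had 3 and 3, Ccn2 had 3 and none, Ankrd1 had 2 and 2, and Lats2 had 2 and 1. Yap1 (chr9:7931999-8004596, minus strand) had no region of either list, as did 8864 of all protein-coding genes. The nearest regions on its chromosome lay 355 kb (Etv4) and 167 kb (Etv5) beyond its ends. For Etv4, the genes for Taz and Yap thus had the highest and the lowest count. For Etv5, Wwtr1 was level with Amotl2, and Yap1 with Ccn2 and Tead1.

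**Figure D1:**
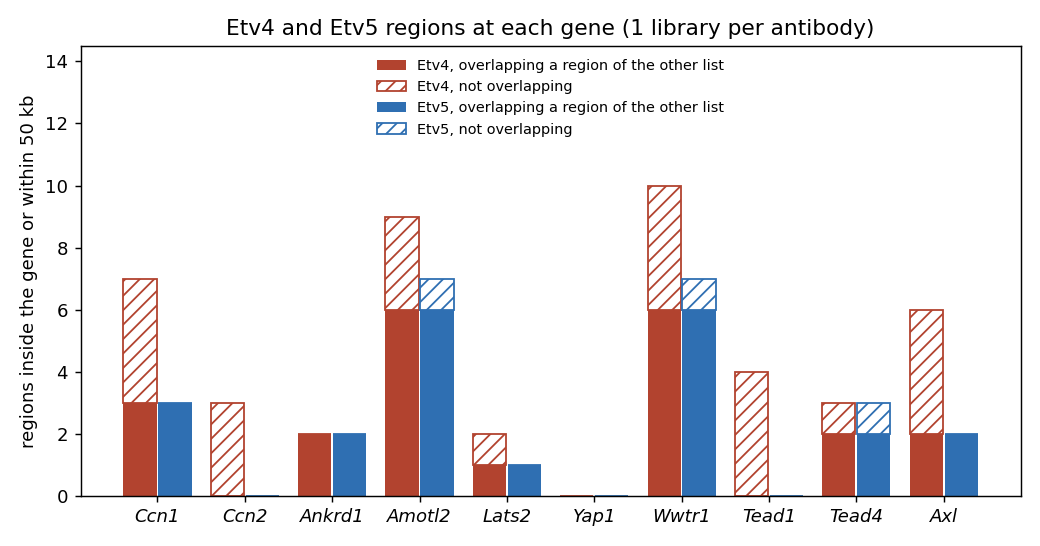
Number of Etv4 and Etv5 regions (vertical axis) inside each of the 10 genes or within 50 kb of it (horizontal axis), 1 library per antibody. Filled parts of the bars are regions that overlapped a region of the other list by at least 1 bp and hatched parts are those that did not; Wwtr1 reached 10 Etv4 regions, and Yap1 had none of either list.

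The median over the 10 genes was 3.50 Etv4 regions, beside 1.00 over all protein-coding genes, and 2 Etv5 regions, beside 0. The windows searched were somewhat longer for these genes, with a median of 150 kb beside 117 kb. Per 100 kb of window, the medians were 2.38 and 0.521 Etv4 regions, and 1.61 and 0 Etv5 regions. A count as high as that of Wwtr1 was found at 1.25% of protein-coding genes for Etv4 and at 0.903% for Etv5. Since Wwtr1 spans 120 kb, its density was less extreme, and 5.83 and 3.30% of genes had as many regions per 100 kb. With 4.54 Etv4 regions per 100 kb, Wwtr1 was below Amotl2 (7.71), Ccn1 (6.80) and Axl (4.57). Amotl2, which is 16.7 kb long, was in the upper 1.38% (Etv4) and 0.574% (Etv5) by density. A region was also assigned to the nearest start of a protein-coding gene. That start belonged to the gene itself for 37 of the 46 Etv4 and 20 of the 25 Etv5 regions. The others lay nearer to Ryk (3 Etv4 and 2 Etv5 regions counted at Amotl2), Tm4sf4 (1 and 1, Wwtr1), Tulp3 (1 and 1, Tead4), Gm49361 (1 and 1, Lats2), Hnrnpul1 (2 and 0, Axl) and Ccdc97 (1 and 0, Axl).

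**Figure D2:**
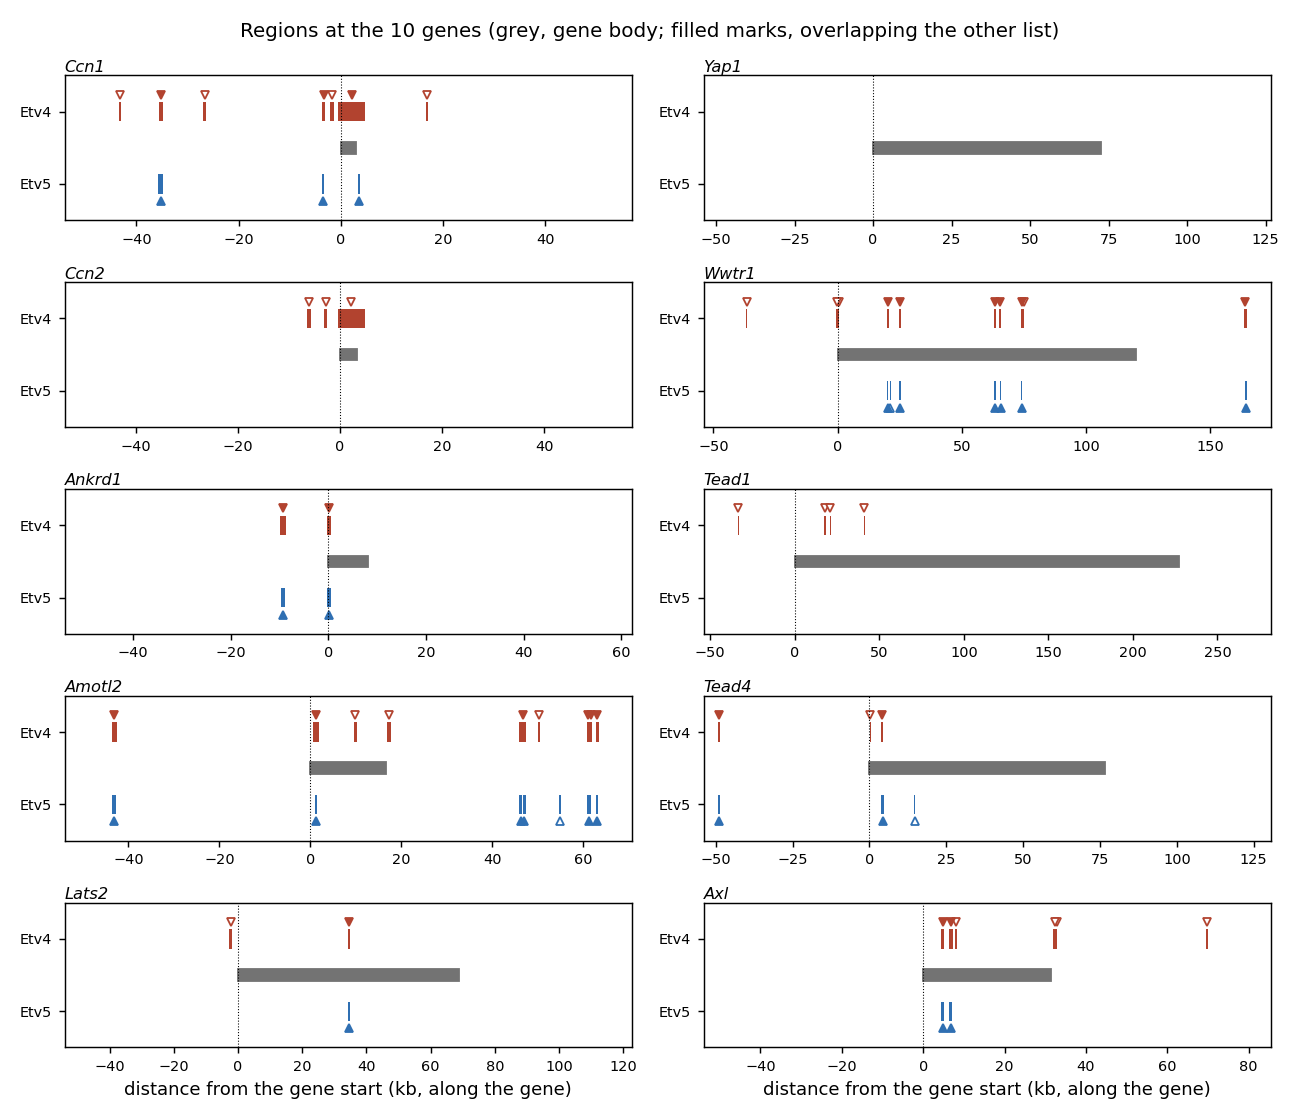
Position of each region relative to the gene start (horizontal axis in kb, positive towards the end of the gene), 1 panel per gene, with the gene body in grey. Blocks show the extent of Etv4 (above) and Etv5 (below) regions and triangles mark their midpoints, filled where the region overlapped the other list; regions lay at the starts of Ccn1, Ccn2 and Ankrd1, in the introns of Wwtr1 and Axl, and beyond the end of Amotl2.

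The secreted matricellular proteins Ccn1 and Ccn2 are widely used readouts of Yap activity, and both genes (Ccn1 at chr3:145646976-145649981, minus strand; Ccn2 at chr10:24595442-24598683, plus strand) lay wholly inside a single Etv4 region. The Ccn1 region (chr3:145645256-145650462) measured 5.21 kb, began 481 bases before the gene start and ran 1720 bases past its end. The Ccn2 region (chr10:24595011-24600275) measured 5.26 kb, and reached 431 bases before the start and 1592 bases past the end. The regions thus ended at about the same distance from both genes. They ranked 14 and 13 by length in the Etv4 list, which held 14 regions of 5 kb or longer. Over 50% of the gene was covered by Etv4 regions at 2 of the 10 genes, Ccn1 and Ccn2, beside 0.583% (128) of all protein-coding genes. Short genes are covered easily, but among the 19552 genes longer than 3 kb only 6 were covered fully. The other 4 were the predicted genes Gm10717, Gm10719, Gm11168 and Gm21738, which Etv5 regions also covered fully. The 36-base sequences within the Ccn1 and Ccn2 regions occurred more than once in the genome in 0.561 and 0.0765% of cases, while this share was 90.7% in the longest region of the Etv4 list, which contains Gm10717, Gm10719 and Gm11168.

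Etv5 regions covered no base of Ccn1 or Ccn2. A single Etv5 region (chr3:145646262-145646584) lay inside the long Etv4 region of Ccn1, 0.391 kb past the end of the gene. The nearest Etv5 region to Ccn2 was 101 kb away. By region number, which runs from 1 to the length of each list by a criterion the sources do not state, the Ccn2 and Ccn1 regions were at 1.14 and 1.87% of the Etv4 list. Within the long regions, TEAD matches numbered 6 at Ccn1 and 4 at Ccn2, or 1.15 and 0.760 per kb, beside 0.777 per kb over all Etv4 regions. The upstream matches lay close to the start: 1 at -105 bp for Ccn1, and 3 at -102, -37 and -28 bp for Ccn2.

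**Figure D3:**
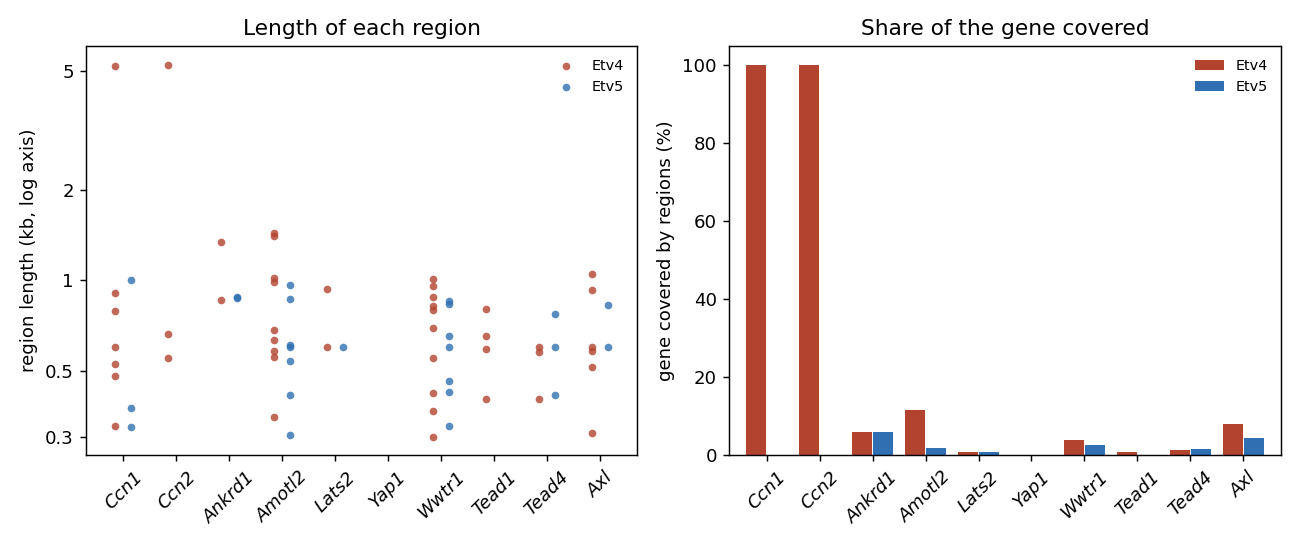
Left, length of each region (vertical axis, kb, log scale) at each of the 10 genes for Etv4 and Etv5. Right, percent of the gene covered by regions of each list; Ccn1 and Ccn2 are covered to 100% by 1 Etv4 region each and to 0% by Etv5 regions.

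Besides the long region, Ccn1 had Etv4 regions at -1.70, -3.35, -26.6, -35.2 and -43.2 kb, and 1 at 16.9 kb, past its end (negative values are upstream of the gene start, measured from the midpoint). Etv5 regions overlapped those at -3.35 and -35.2 kb. The -35.2 kb pair was among the first regions of both lists by number, at 3.87 and 3.68%. The regions at -1.70 and -3.35 kb each held a match to the CArG box, the site of serum response factor. The match read CCATATTTGG on the plus strand, opposite to the strand of the gene. Serum response factor is a second regulator for which Ccn1 is a classical target. Ccn2 had Etv4 regions at -2.83 kb, with an AP-1 match, and at -6.08 kb, the stretch printed above. Its -6.08 kb region also held an ETS match.

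Ankrd1 (chr19:36111961-36120099, minus strand), which encodes a nuclear ankyrin repeat protein, had 1 pair of overlapping regions at its start and 1 upstream, and nothing else. The start pair was nearly the same in both lists, at chr19:36119619-36120481 for Etv4 and chr19:36119615-36120498 for Etv5, and both regions spanned the gene start. The upstream regions were centred at -9.29 and -9.31 kb. All 4 regions were within the first 10% of their lists by number, at 9.86 and 3.53% for Etv4 and 8.79 and 2.84% for Etv5. Each of the 4 held at least 1 TEAD match and 1 match to the RUNX patterns TGTGGTT and TGTGGTC. Within each pair, these were the same sites in both lists.

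Axl (chr7:25757273-25788705, minus strand), a receptor tyrosine kinase, had its overlapping pairs at 4.76 and 6.82 kb, shown above. Both lay in introns. It had another intronic Etv4 region at 7.96 kb. The remaining 3 Etv4 regions lay past its end, nearer to the starts of Hnrnpul1 and Ccdc97. The 6.82 kb Etv4 region and its Etv5 partner at 6.77 kb were at 7.93 and 10.5% of their lists.

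Amotl2 and Lats2 are both targets and inhibitors of Yap: Amotl2 is an angiomotin family scaffold that holds Yap at cell junctions, and Lats2 is the kinase itself. Amotl2 (chr9:102716672-102733418, plus strand) had a pair near its start (1.29 and 1.30 kb), a pair at -43.1 kb and no other upstream region. Its further overlapping regions lay downstream, between 46.3 and 63.2 kb from the start. There an Etv4 region at 46.7 kb overlapped Etv5 regions at 46.3 and 47.1 kb, Etv4 regions at 61.1 and 61.7 kb overlapped an Etv5 region at 61.3 kb, and the last pair was at 63.2 and 63.0 kb. Downstream of Amotl2 were thus 6 of its 9 Etv4 and 5 of its 7 Etv5 regions. Lats2 (chr14:57689662-57758388, minus strand) had 1 pair, in an intron at 34.6 kb, and an Etv4 region at -2.25 kb. The intronic regions of both lists had the same ends (chr14:57723491-57724088).

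The coactivator gene Wwtr1 (chr3:57455649-57575910, minus strand) had 6 overlapping pairs. Of these, 5 were inside the gene, with Etv4 regions at 20.2, 24.9, 63.4, 65.4 and 74.0 kb, and 1 was past its end at 164 kb, nearer to Tm4sf4. At the start of Wwtr1 there were 2 Etv4 regions, at 0.373 and -0.315 kb, and the second spanned the start. It held 4 TEAD matches, of which the nearest to the start was at -134 bp, and a CArG box at -435 bp. The Etv5 region nearest the Wwtr1 start was 20.1 kb away.

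Of the Tead genes, Tead1 (chr7:112679318-112906807, plus strand) had 3 intronic Etv4 regions, at 17.9, 21 and 41.1 kb, and 1 at -33.5 kb. Each of the 3 intronic regions held a TEAD match, and those at 17.9 and 41.1 kb also an AP-1 match. The nearest Etv5 region was 223 kb from Tead1. Tead4 (chr6:128224288-128300823, minus strand) had a pair in an intron, at 4.10 kb (Etv4) and 4.26 kb (Etv5). It had an Etv4 region at 0.204 kb with 3 TEAD matches, an Etv5 region at 14.7 kb, and a pair at -49.1 kb that was nearer to Tulp3. This last pair had the same ends in both lists (chr6:128349607-128350204). Pairs with the same ends numbered 61 over the whole lists, and 2 of them were at these genes. Both of the 2 measured 598 bp, a length that other regions of each list at these genes also had. Neither held an AP-1, TEAD or ETS match.

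Considering all 10 genes, the Etv4 regions were spread over the gene bodies (21), upstream (14) and downstream (11), and the Etv5 regions likewise (13, 5 and 7). By midpoint, 24 Etv4 and 14 Etv5 regions were in introns of any gene. These places were not counted over the whole lists, so they are not traits particular to these genes. An Etv4 midpoint lay within 2 kb of the start of 5 of the 10 genes (Ccn1, Ankrd1, Amotl2, Wwtr1 and Tead4), beside 15.4% of protein-coding genes. An Etv5 midpoint lay there at 2 of the 10 (Ankrd1 and Amotl2), beside 8.73%. The Ccn2 midpoint was not within this distance, at 2.20 kb, although its long region spans the start. When any base of a region was counted, an alternative chosen after seeing the data, 7 genes had an Etv4 region within 2 kb and 2 had an Etv5 region, beside 15.8 and 8.95% of protein-coding genes. With 1 library per factor, a start with an Etv4 but no Etv5 region by this count, as at Ccn1, Ccn2, Lats2, Wwtr1 and Tead4, was not tested as a difference between the factors.

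The lists overlapped at 7 of the 10 genes (Ccn1, Ankrd1, Amotl2, Lats2, Wwtr1, Tead4 and Axl), beside 29.5% of protein-coding genes with an Etv4 region that overlapped an Etv5 region. An overlap with the Etv5 list was seen for 22 of the 46 Etv4 regions (47.8%, interval 32.9 to 63.1%), and the share over the whole list was 37.8%, inside this interval. An overlap with the Etv4 list was seen for 22 of the 25 Etv5 regions (88.0%, interval 68.8 to 97.5%), beside 63.2%, which was below the interval. The 3 that did not were the Etv5 regions at 54.9 kb from Amotl2, 21.2 kb from Wwtr1 and 14.7 kb from Tead4. The overlap was also set beside the place in the list. In the first 50% of the Etv4 list by number, 19 of 28 regions at the genes overlapped (67.9%, interval 47.6 to 84.1%), beside 54.7% over the list. In the last 50%, 3 of 18 did (16.7%, interval 3.58 to 41.4%), beside 20.8%. For Etv5 the counts were 14 of 15 (93.3%, beside 80.1%) and 8 of 10 (80.0%, interval 44.4 to 97.5%, beside 46.2%).

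**Figure D4:**
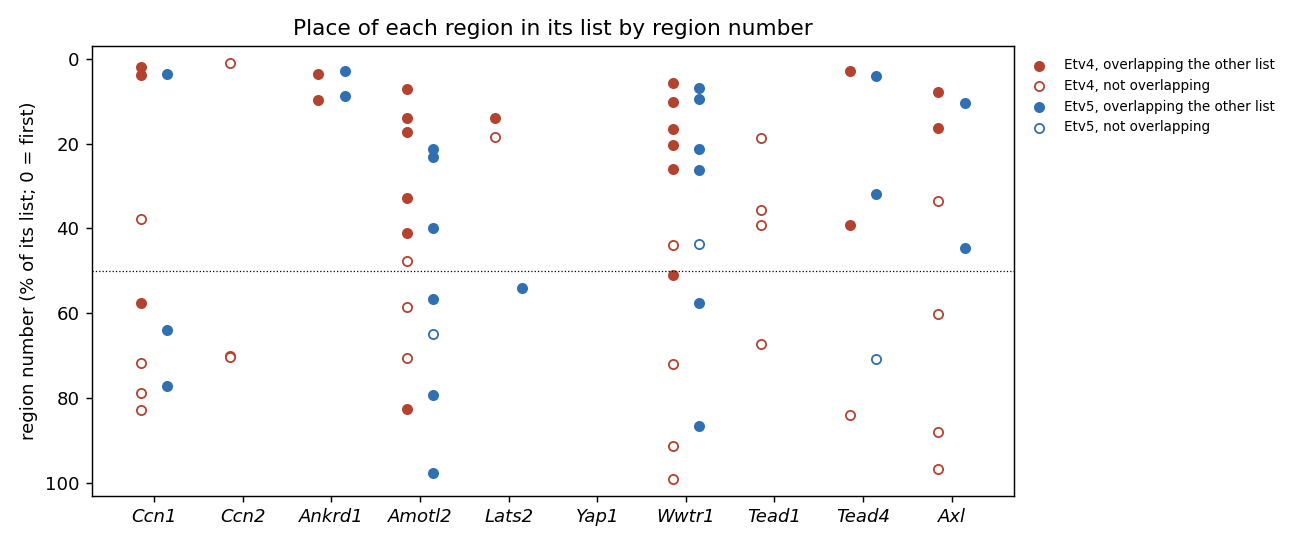
Region number of each region as percent of its list (vertical axis, 0 at the top is the first region) at each of the 10 genes, with filled points for regions that overlapped the other list. The dotted line marks 50%; the medians were 38.5% for the 46 Etv4 and 40.0% for the 25 Etv5 regions, and the Ankrd1 points all lie within the first 10%.

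The regions at these genes had medians of 38.5% (Etv4) and 40.0% (Etv5) by place in the lists. The first 10% by number held 9 of the 46 Etv4 regions (19.6%, interval 9.36 to 33.9%) and 6 of the 25 Etv5 regions (24%, interval 9.36 to 45.1%), and both intervals include 10%. Their median length was 642 bp for Etv4, beside 589 bp over the list, and 598 bp for Etv5, beside 532 bp. Repeated sequence was rare in them: at most 20.8% of the 36-base sequences in an Etv4 region (at -36.7 kb from Wwtr1) and at most 0.244% of those in an Etv5 region had a further copy in the genome.

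Patterns were counted in the 500 bp around each midpoint, on both strands. The TEAD pattern was found in 21 of the 46 Etv4 regions (45.7%, interval 30.9 to 61.0%) and in 14 of the 25 Etv5 regions (56.0%, interval 34.9 to 75.6%). The whole lists held it in 32.3 and 34% of regions, of which the first was inside its interval and the second just below. Among the 24 Etv4 regions without an Etv5 overlap, 12 held the pattern (50.0%, interval 29.1 to 70.9%, beside 29.4% of such regions over the list), and among the 22 with one, 9 did (40.9%, interval 20.7 to 63.6%, beside 37.0%). Since overlapping regions share their sequence, the Etv4 and Etv5 shares are not separate measurements. The same letters written backwards, as a control of base composition, were found in 8.70% of the Etv4 and 4.00% of the Etv5 regions at the genes, beside 15.8 and 14.8% over the lists. The share depended on the window: in the central 200 bp it was 23.9% for Etv4 and 32.0% for Etv5, beside 17.1% in both lists. Over whole regions it was 56.5% for Etv4 and 56.0% for Etv5, beside 36.7 and 35.3%. The long Etv4 regions of Ccn1 and Ccn2 counted as lacking the pattern in the central 500 bp, since their 6 and 4 TEAD matches lay outside it.

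The AP-1 pattern was about as frequent as elsewhere, in 17 of 46 Etv4 regions (37.0%, interval 23.2 to 52.5%, beside 37.4%) and 9 of 25 Etv5 regions (36%, interval 18 to 57.5%, beside 35.8%). The ETS patterns were found in 5 of 46 and 2 of 25 (10.9 and 8%, beside 10.2 and 7.93%), at Ccn2, Amotl2 and Axl for Etv4 and at Tead4 and Axl for Etv5. Written backwards, the ETS letters were found in 4 Etv4 and 4 Etv5 regions at the genes (8.70 and 16%, beside 3.60 and 3.81% over the lists), about as many as or more than the patterns themselves. A TEAD and an AP-1 match at most 50 bp apart within the 500 bp were found in 6 Etv4 regions (13.0%, interval 4.94 to 26.3%, beside 4.90%, just below the interval) and in 2 Etv5 regions (8%, beside 5.18%). This distance was chosen after seeing the matches. The Etv4 regions were at Ccn1 (2), Ccn2, Amotl2, Tead1 and Axl. The RUNX patterns were found in 30.4% of the Etv4 regions (beside 24.7%) and 40.0% of the Etv5 regions (interval 21.1 to 61.3%, beside 23.9%). A CArG box was found in 3 of the 46 Etv4 regions (6.52%, interval 1.37 to 17.9%, beside 2.59%, inside the interval) and in 1 of the 25 Etv5 regions (4.00%, beside 2.61%). A match to letters is a description and does not show that a factor was bound there.

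**Figure D5:**
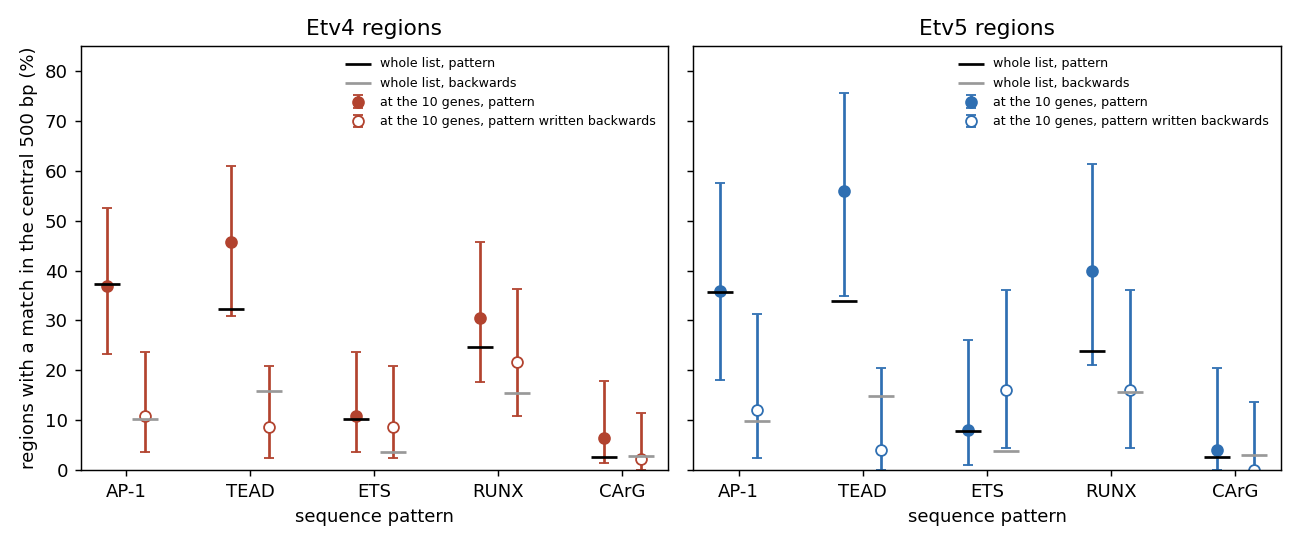
Percent of regions with a match to each pattern in the central 500 bp (vertical axis) at the 10 genes, for Etv4 (46 regions, left) and Etv5 (25 regions, right). Points are shares with exact 95% binomial intervals, open points are the patterns written backwards and horizontal marks are the shares over the whole lists; for TEAD the points lie at 45.7 and 56.0%, above the marks at 32.3 and 34%.

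The promoters of these genes were searched independently of the lists, in the 300 bases from 250 before to 50 after the RefSeq start (GRCm38.p6). Entries were found for 7 of the 10 genes, and those of Ccn2, Tead1 and Tead4 were not analysed here. The TEAD pattern was present in the promoter of each of the 7 genes, Yap1 included, beside 14.7% of 32851 promoters. Counting every listed start, 8 of 9 promoters had it, and a second Lats2 start did not. None of the 7 held the AP-1 pattern (5.20% of all promoters) or an ETS pattern (7.07%). Several of these genes were chosen as known Yap and Tead targets, so a TEAD pattern in them is not independent of the choice. Among 45 other genes of the pathway, 34 had entries, and 13 of their 38 promoters (34.2%) held the pattern.

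The same count of regions was made for these 45 genes, listed in 3 groups. Of 22 Hippo kinases, adaptors and upstream regulators, 16 had an Etv4 region (72.7%, beside 53.4% of all protein-coding genes) and 15 an Etv5 region (68.2%, beside 42.7%). Wwc2, a scaffold of the Lats kinases, had the most (8 and 4), followed by Ajuba (7 and 1), a LIM protein that binds Lats, and the junctional proteins Amotl1 (5 and 2) and Frmd6 (5 and 3). The kinase gene Stk4, the adaptor genes Sav1 and Mob1a, and Amot had neither. Of 6 nuclear partners, 3 had an Etv4 region (50.0%, below the share over all genes) and 4 an Etv5 region (66.7%). Vgll4, a repressor of Tead, had 7 and 4, Tead3 had 3 and 2, Vgll3 had 1 and 1, and Tead2 and Vgll1 had neither. Of 17 other target genes, 12 had an Etv4 (70.6%) and 11 an Etv5 region (64.7%). Birc5, an inhibitor of apoptosis, had 11 and 4, Asap1 had 10 and 9, and Myof (8 and 7) and the kinase gene Nuak2 (8 and 8) followed. Ccn3, a relative of Ccn1 and Ccn2, was without a region of either list, as were Arhgef17, Fjx1, Foxf2 and Rbms3. Over all 45 genes, 68.9% had an Etv4 and 66.7% an Etv5 region, with medians of 2 and 1 regions. The windows searched were longer here too, with a median of 151 kb beside 117 kb over all protein-coding genes. By group the medians were 181 kb (regulators), 119 kb (nuclear partners) and 135 kb (other targets).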

How the data were processed

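Etv4 and Etv5 ChIP-seq was carried out on TGF-β3-treated EpRas cells, with 1 library per antibody. After 15 PCR cycles, libraries were sequenced on an Ion Proton instrument. Reads were aligned to mm10 with Bowtie per the submitters' processing notes, and the authors called regions on each library alone with the one-sample analysis of CisGenome (300 bp sliding window, p threshold of 0.1). No input was used in the calling, so mappability, copy number and open chromatin are not removed from the regions. The deposited lists hold start and end positions, a score of 1000 for every region, and a region number that occurs once per region and whose criterion is not given in the sources used here. No counts per region were given, so depth and precision per region are unknown.

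Gene positions were taken from GENCODE M21 and sequence from GRCm38.p6. Coordinates count from 1. Overlap required 1 bp. The distance to a gene start was measured from the region midpoint. Counts per gene, coverage, overlap, place in the list, length and patterns were compared with all protein-coding genes or the whole list. The places of regions (inside, upstream, downstream or in introns) and the shares of repeated sequence were not. Promoter starts came from RefSeq, and differed from the GENCODE start by 255 bp for Ankrd1, 1132 bp for Amotl2 and 12265 bp for Lats2. The genes, lists of pathway genes and patterns were chosen with earlier results of these data known. Regions were to be described singly for genes with 6 or fewer over both lists, and otherwise as overlapping pairs, nearest and longest regions. Further single regions of Ccn1, Amotl2, Wwtr1 and Axl were named after their values were seen. Sequence was to be shown for the pair with the most matches at each gene. Pairs in exons were skipped, and pairs with no match or 1 AP-1 match are not shown.

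Alternatives were margins of 10 and 100 kb, start distances of 1 and 5 kb, any transcript start, the first or longer 50% of each list, equal list sizes, other overlap rules, lists without repeated sequence, and windows of 200 bp or the whole region. The functions for overlap, coverage and pattern search were tested on simulated data. The computation ran in Python 3.11.15 (pandas 2.3.3, numpy 2.4.6, numba 0.67.0 and scipy 1.17.1), with figures drawn in matplotlib 3.10.9.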

Additional observations from a re-analysis of the deposited data

How the results depend on the processing

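Of 72 alternative values over 14 results, 59 stayed within 1.5 times the count or inside the interval of the share, and 13 moved. The number of Etv4 regions at the genes fell from 46 to 28 in the first 50% of the list by number and to 29 in the longer 50%. For Etv5 it fell from 25 to 15 in the first 50% and to 16 with a margin of 10 kb. Genes with an Etv4 midpoint near the start numbered 3 within 1 kb and 8 within 5 kb. For Etv5 they numbered 1 within 1 kb, 5 within 5 kb, and 1 in the first 50% by number or in the longer 50%. In a window of 200 bp, the shares with a pattern fell to 21.7% (AP-1, Etv4), 23.9% (TEAD, Etv4) and 32.0% (TEAD, Etv5), since fewer bases were searched. The other moves follow by construction from shorter lists or from other distances. No paired analysis was possible because neither antibody had a second library. Without read counts, the number of regions cannot be separated from depth, and neither list can be checked against a replicate.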
